A study of Mus musculus with 27 samples.

Results

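Stromal and matrix transcripts come from the genes that connective-tissue cells use to build, cross-link and pull on extracellular matrix. A set of 41 such genes, chosen by symbol, was followed among the 29872 genes of a count table from mouse bone marrow-derived macrophages, across 27 RNA-seq libraries. These are primary macrophages, grown for 5 days from marrow of male mice aged 8 to 10 weeks, in medium with 10% L-cell conditioned medium and 20% bovine serum. L cells are a mouse fibroblast line whose medium supplies the macrophage growth factor M-CSF. The GRIP1 knockout (KO) libraries came from LysM-Cre+/+; GRIP1fl/fl mice, and the wild-type (WT) libraries from mice whose genotype is given as C57BL/6, LysM-Cre+/+; GRIP1wt/wt and whose titles say BL6. All 8 groups, as the genotype entries have it, therefore carry LysM-Cre, which is active mainly in myeloid cells. GRIP1, the product of Ncoa2, is a coregulator of the glucocorticoid receptor. For 24 h the cultures received IL4 at 10 ng/ml, corticosterone at 500 nM, dexamethasone at 100 nM or vehicle. KO cultures gave 3 IL4, 4 corticosterone, 4 dexamethasone and 4 vehicle libraries, and WT cultures gave 3 libraries for each treatment. Whether the libraries of a group came from different animals is not stated in the labels, and the p-values below therefore reflect library-to-library spread, part of which may be technical.

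Fibroblasts and other mesenchymal cells secrete fibrillar collagens, which lysyl oxidases cross-link and small proteoglycans space. Activated fibroblasts also make alpha smooth muscle actin and its partners and pull on the matrix they have laid down. Macrophages are not a main source of these proteins, although they make some matrix proteins of their own. In bulk RNA, fewer cells of a type and less RNA per cell cannot be told apart.

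Levels are given as counts per 1000000 (CPM). The library total behind each was taken over genes that passed the filter on low counts and multiplied by edgeR's TMM scaling factor. Libraries held 20162729 to 48023102 counts in all. Ncoa2 had 16.1 to 26.0 CPM in the 15 KO libraries, against 55.7 to 93.4 CPM in the 12 WT libraries, so every library followed its label. The 12 macrophage markers fixed for this purpose summed to 9360 to 12600 CPM in KO libraries and 10000 to 12300 CPM in WT libraries. The WT libraries stood apart from each other by replicate number in the genes described here, as set out below. Arg1, a gene that IL4 induces, exceeded 50 CPM without IL4 in 4 libraries (KO vehicle 2 and 3, KO dexamethasone 2 and WT dexamethasone 1), and counts are also given without these. Of the 41 genes, 38 passed the filter on low counts and were tested. Mfap5, Lum and Thy1 did not, with 20, 75 and 80 counts over all 27 libraries. Actg2 and Cnn1 passed only through their WT libraries.

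The 41 genes together took 101 to 266 CPM in KO libraries and 636 to 3450 CPM in WT libraries. With vehicle, their sum was 216, 136, 138 and 120 CPM in the KO libraries (numbers 1 to 4), against 3060, 1140 and 804 CPM in the WT libraries (numbers 1 to 3). With IL4 it was 101, 150 and 123 CPM in the KO libraries (numbers 1, 2 and 4), against 2680, 1040 and 636 CPM in the WT libraries. The highest KO vehicle library therefore lay below the lowest WT one, and the same held with IL4. With corticosterone the sum was 128, 183, 179 and 187 CPM in the KO libraries, against 3160, 1220 and 843 CPM in the WT libraries. With dexamethasone it was 143, 230, 266 and 128 CPM in the KO libraries, against 3450, 1520 and 990 CPM in the WT libraries. The groups did not overlap under any of the 4 treatments. As a share of all counts, the 41 genes made up 0.00974% to 0.0265% of a KO library and 0.0626% to 0.343% of a WT library.

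**Figure D1:**
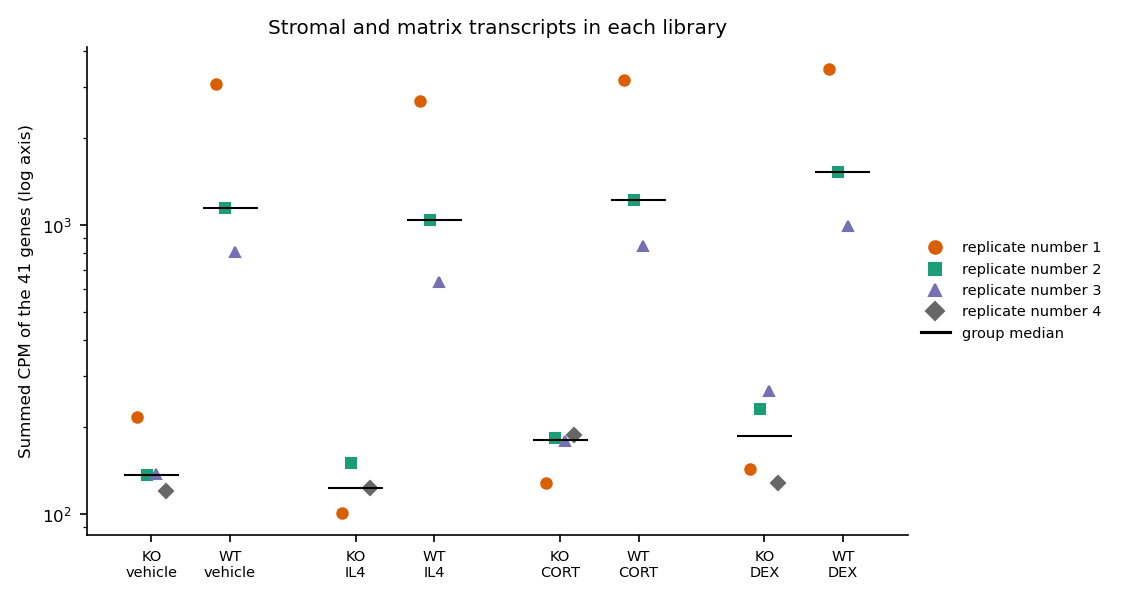
Summed CPM of the 41 genes (log axis) in each library, KO left of WT for each treatment, with the replicate number as colour and symbol and the group median as a line. The 15 KO libraries sit between 101 and 266 CPM and the 12 WT libraries between 636 and 3450 CPM, with WT number 1 highest and number 3 lowest under each treatment.

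Each gene was tested with edgeR's quasi-likelihood test, with Benjamini-Hochberg adjustment over the 14589 genes that passed the filter, and is said to have risen or fallen where the adjusted p was under 0.05. In KO against WT with vehicle, 36 of the 41 genes fell (10.3% of all genes tested fell) and 0 rose (8.47%). Under IL4, 36 of the 41 fell (6.59%) and 0 rose (5.76%). Under corticosterone, 36 fell (8.95%) and 0 rose (5.46%), and under dexamethasone 36 fell (10.5%) and 0 rose (6.70%). The median log2 fold change of the 38 tested members was -3.85 in vehicle, -3.67 in IL4, -3.46 in corticosterone and -3.53 in dexamethasone cultures, beside 0.017, 0.022, 0.008 and 0.002 over all genes tested. These medians were the same to 2 decimals with Cnn1 set to the bound given for it below. Leaving out Actg2 and Cnn1, which were tested only because of their WT levels, 34 of 39 fell under each treatment, and the medians were -3.68, -3.53, -3.42 and -3.49. Without the 4 libraries high in Arg1, 31 of 41 were lower with vehicle (6.56% of all genes tested in that fit) and 33 with dexamethasone (5.79%), and Col4a1, Lox and Cav1 no longer passed with vehicle, with adjusted p of 0.0642, 0.0816 and 0.103. Without the WT libraries numbered 1, 36 were lower in vehicle cultures (7.77% of all genes tested in that fit), 35 under IL4 (4.48%), 35 under corticosterone (6.05%) and 36 under dexamethasone (8.08%). For 32 of the 41 genes every WT library lay above every KO library, across all treatments, which held for 2.96% of all genes tested. The 32 include Actg2 and Cnn1, which were tested only because of their WT levels.

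**Figure D2:**
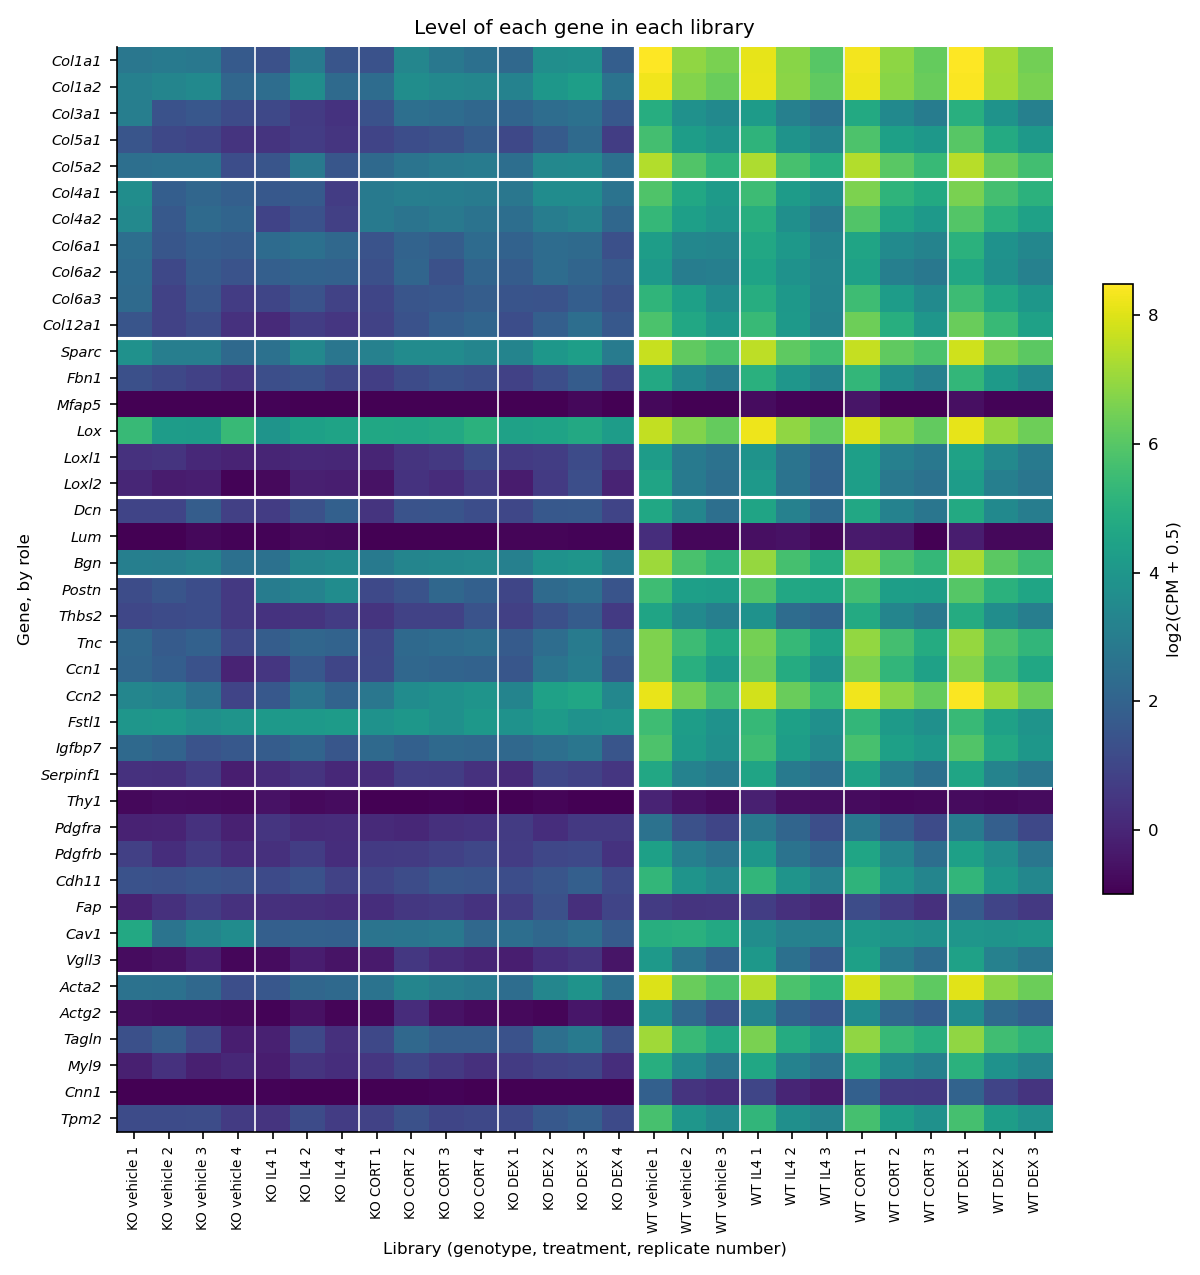
Level of each of the 41 genes, as log2(CPM + 0.5), in each library, with the 15 KO libraries left of the 12 WT libraries and the genes grouped by role. The WT block is brighter for nearly every gene, and the exceptions are Fstl1 and Fap, which differ little, and Mfap5, Lum and Thy1, which stay near 0 throughout.

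The fibrillar collagens, which form the load-bearing fibres of connective tissue, all fell in KO libraries. All 5 listed members were lower with vehicle (10.3% of all genes tested fell), with a median log2 fold change of -4.33. Col1a1 encodes a chain of type I collagen and lies on chromosome 11 (94936224 to 94953042, plus strand, mm10). It had 6.2, 7.09, 6.41 and 2.68 CPM in the KO vehicle libraries, against 350, 120 and 94.2 CPM in the WT vehicle libraries. Its log2 fold change was -5.07 ± 0.74 (SE, adjusted p = 7.076e-05). Without the WT libraries numbered 1 it was -4.26. Col1a1 took 1.63% to 5.41% of the members' summed counts in KO libraries and 8.93% to 11.7% in WT libraries, so the mix of members differed as well as its total. Col5a1, a chain of the type V collagen that sets fibril diameter, had 2.32, 1.60, 1.40 and 0.841 CPM in the KO vehicle libraries, against 49.8, 18.7 and 14.6 CPM in the WT ones. Its log2 fold change was -4.19 ± 0.63. Col3a1, which makes type III collagen, fell least, by 2.37 on the log2 scale, and its ranges over all treatments overlapped, with 0.81 to 7.71 CPM in KO libraries and 5.39 to 30.9 CPM in WT libraries.

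The other collagens fell less. All 6 were lower with vehicle (10.3% of all genes tested fell), with a median log2 fold change of -2.44. Col4a1, a chain of the type IV collagen of basement membranes (chromosome 8, 11198423 to 11312826, minus strand, mm10), had 12, 3.03, 3.85 and 3.18 CPM in the KO vehicle libraries, against 58.7, 25.5 and 17.5 CPM in the WT ones. Number 1 stood above the other KO vehicle libraries. The log2 fold change was -2.64 ± 0.58. Col4a2, its partner chain, is transcribed from the opposite strand and overlaps it at the exons. Col6a3, of the beaded microfibrils of type VI collagen, had 4.41, 1.35, 2.34 and 1.12 CPM in the KO vehicle libraries, against 36.6, 20.2 and 11.7 CPM in the WT ones (log2 fold change -3.32 ± 0.53). Its partners Col6a1 and Col6a2 fell by 1.97 and 1.98 on the log2 scale. Col12a1, whose product decorates fibril surfaces, fell by 4.36.

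Genes of fibril assembly and cross-linking fell as well, except that Mfap5 was too low to test. Lox, the founding lysyl oxidase (chromosome 18, 52516067 to 52529867, minus strand, mm10), had 41, 18.3, 18 and 40.9 CPM in the KO vehicle libraries, against 195, 103 and 75.2 CPM in the WT vehicle libraries. The groups did not overlap, and the log2 fold change was -2.08 ± 0.50 (adjusted p = 0.004882). Its paralogs were much scarcer in KO libraries. Loxl1 had 0.775, 0.860, 0.579 and 0.467 CPM in the KO vehicle libraries, against 18.3, 6.93 and 5.50 CPM in the WT ones (log2 fold change -3.96 ± 0.56). Loxl2 had 0.503, 0.328, 0.379 and 0.0312 CPM in the KO vehicle libraries, against 22.7, 6.83 and 5.06 CPM in the WT ones (log2 fold change -5.2 ± 0.80). Sparc, a collagen-binding protein, and Fbn1, the microfibril protein fibrillin-1, fell by 3.74 and 3.38 on the log2 scale.

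Of the small leucine-rich proteoglycans, which bind collagen fibrils and space them, Bgn and Dcn fell and Lum was not tested. Bgn, biglycan (chromosome X, 73483602 to 73495933, plus strand, mm10), had 7.98, 7.91, 8.84 and 5.2 CPM in the KO vehicle libraries, against 137, 53.6 and 35.6 CPM in the WT ones (log2 fold change -3.32 ± 0.56). Dcn, decorin, fell by 2.83. Lum, lumican, reached no more than 0.0873 CPM in any KO library and 0.693 CPM in any WT library.

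Among the secreted matricellular proteins, 7 of 8 fell with vehicle (10.3% of all genes tested fell), with a median log2 fold change of -4.08. Ccn2, connective tissue growth factor (chromosome 10, 24595442 to 24598683, plus strand, mm10), had 9.64, 8.73, 5.45 and 1.40 CPM in the KO vehicle libraries, against 290, 89.7 and 49.9 CPM in the WT ones. Its log2 fold change was -4.54 ± 0.77 (adjusted p = 0.000259). Ccn1, its paralog, fell by 4.42. Tnc, tenascin-C, had 4.10, 2.79, 3.35 and 1.53 CPM in the KO vehicle libraries, against 101, 44.3 and 26.7 CPM in the WT ones (log2 fold change -4.28 ± 0.63). Postn, periostin (chromosome 3, 54361109 to 54391037, plus strand, mm10), had 1.78, 2.33, 1.84 and 0.997 CPM in the KO vehicle libraries, against 45.9, 20.0 and 18.9 CPM in the WT ones. Its adjusted p with vehicle was the smallest among the members (log2 fold change -4.03 ± 0.52, adjusted p = 1.443e-05). Thbs2, Igfbp7 and Serpinf1, which encode thrombospondin-2, an IGF-binding protein and pigment epithelium-derived factor, fell by 3.19, 3.24 and 4.13. Fstl1, a secreted follistatin-like protein, was the exception in this group. It had 13 to 17.7 CPM over the KO libraries, against 12.9 to 46.3 CPM over the WT libraries, and its log2 fold change with vehicle was -0.84 ± 0.40 (adjusted p = 0.1733). The WT libraries numbered 3 had 12.9 to 14.6 CPM of Fstl1, inside the KO range.

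Of the surface receptors and regulators of mesenchymal cells, 5 of the 6 tested fell with vehicle (10.3% of all genes tested fell), among them Cav1, described below. Pdgfra and Pdgfrb, the receptors for platelet-derived growth factor, fell by 2.47 and 3.61 on the log2 scale with vehicle, and Cdh11, a cadherin of fibroblasts, fell by 3.31. Vgll3, a cofactor of the TEAD transcription factors, had 0.116, 0.164, 0.359 and 0.0623 CPM in the KO vehicle libraries, against 16.4, 5.73 and 3.31 CPM in the WT ones (log2 fold change -5.39 ± 0.81). Fap, fibroblast activation protein, is often used to mark activated fibroblasts and yet did not pass. It had 0.426 to 2.06 CPM over the KO libraries, against 0.518 to 2.79 CPM over the WT libraries, and its log2 fold change with vehicle was -0.22 ± 0.38 (adjusted p = 0.7766). Thy1, a surface protein of fibroblasts, was low in both genotypes, with at most 0.194 CPM in a KO library and 0.474 CPM in a WT library.

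The contractile genes Acta2, Tagln, Myl9 and Tpm2 were lower under each treatment, with a median log2 fold change of -4.97 with vehicle. The other 2 of the 6, Actg2 and Cnn1, were tested only because of their WT levels and are given as values. Acta2, alpha smooth muscle actin (chromosome 19, 34241090 to 34255590, minus strand, mm10), had 5.50, 5.37, 4.09 and 1.93 CPM in the KO vehicle libraries, against 255, 80.0 and 55.3 CPM in the WT ones. Its log2 fold change was -4.97 ± 0.67 (adjusted p = 3.171e-05), and -4.03 without the WT libraries numbered 1. Tagln, the actin-binding protein transgelin, had 2.01, 2.95, 1.54 and 0.374 CPM in the KO vehicle libraries, against 141, 40.9 and 26.2 CPM in the WT ones (log2 fold change -5.39 ± 0.80). Myl9, a regulatory light chain of myosin, had 0.387, 0.778, 0.399 and 0.530 CPM in the KO vehicle libraries, against 30.6, 11.4 and 6.05 CPM in the WT ones (log2 fold change -4.97 ± 0.69). These 3 encode parts of one contractile apparatus. Their adjusted p was among the 12 smallest of the members, which makes groups without overlap likely. Actg2, gamma smooth muscle actin, had 0.155, 0.123, 0.120 and 0.0935 CPM in the KO vehicle libraries, against 12.7, 4.08 and 2.02 CPM in the WT ones. Cnn1, calponin, had 0 counts over the KO vehicle libraries, against 138 counts over the WT vehicle libraries. With a floor of 3 counts over the KO group this was at least 68.2-fold lower. Tpm2, a tropomyosin, fell by 4.02.

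**Figure D3:**
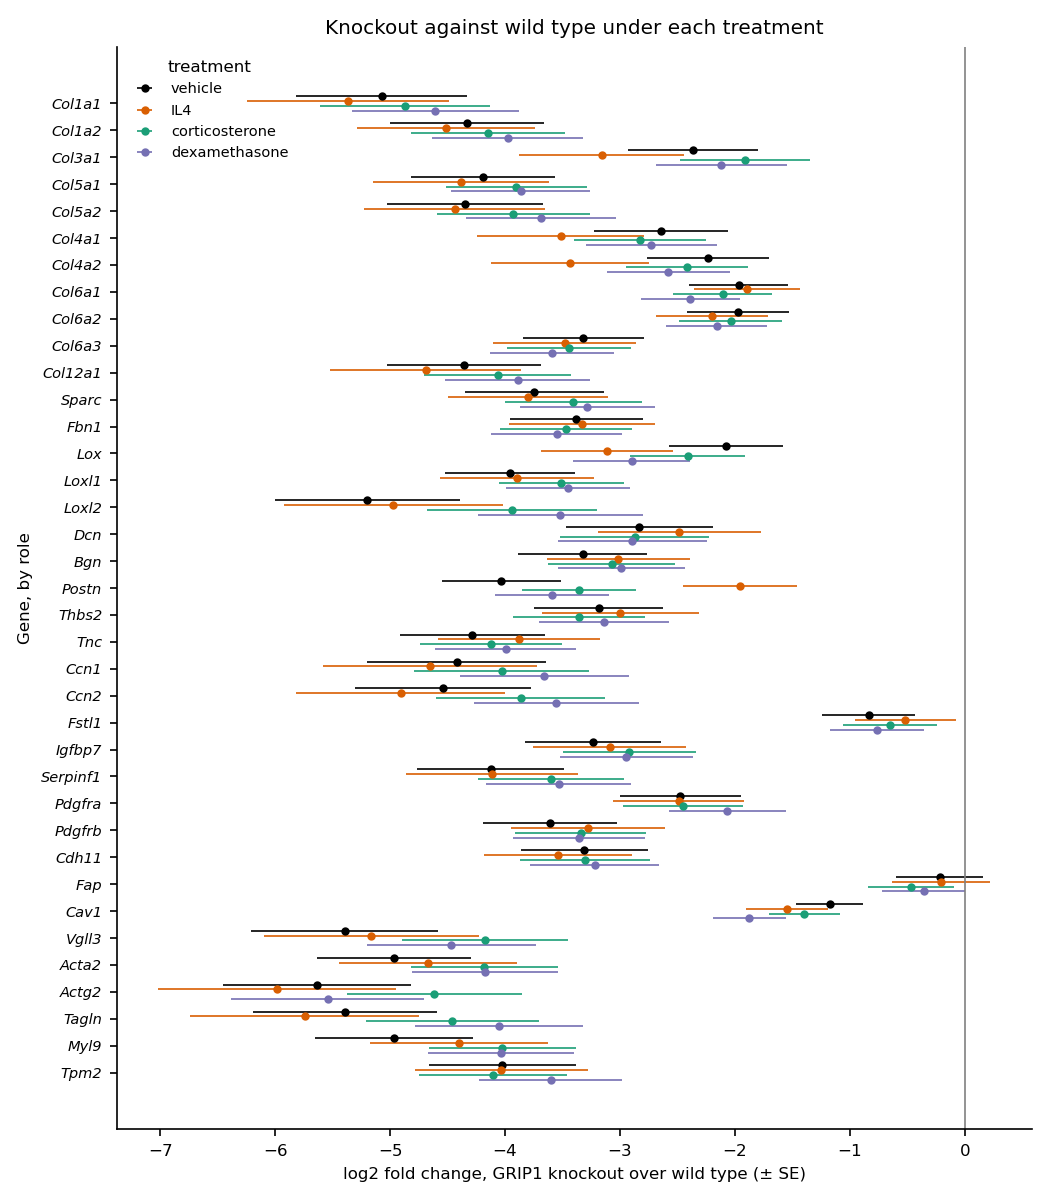
Log2 fold change of KO over WT (± SE) for 37 tested genes under each of the 4 treatments, ordered by role; Cnn1 is left out because its KO libraries were nearly all at 0. Every point lies below 0, and Fstl1, Fap and Cav1 lie nearest to it.

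Members that moved together include targets of serum response factor, which binds the CArG box, and of the TEAD factors, which bind GGAATG on either strand. Promoters of 25 of the 41 genes were matched by symbol among 27025 RefSeq promoters (GRCm38.p6), and the 250 bases before each gene's start were searched on both strands. The CArG box was searched in its strict form CCWWWWWWGG, where W is A or T. It occurred in 1 of the 25 (4%), which was Myl9, and in 1.62% of all promoters. Forms with another base among the W were not counted, such as ccctatatgg and ccttgtttgg in the Acta2 window below. The TEAD letters occurred in 5 of the 25 (20%), which were Acta2, Ccn1, Col3a1, Col6a2 and Vgll3, and in 14.4% of all promoters. The shares were close to those of all promoters. The 3 promoters below belong to contractile and matricellular members that fell by over 4 on the log2 scale with vehicle, and are shown 5′ to 3′ on the gene's strand. They are at chr19:34255374-34255623 (minus strand) for Acta2, at chr3:145649986-145650235 (minus strand) for Ccn1 and at chr2:156775214-156775463 (plus strand) for Myl9. Capitals mark the TEAD letters in Acta2 and, read on the other strand, in Ccn1, which begin 146 and 103 bases before the start, and the CArG box in Myl9, which begins 161 bases before it. These starts are RefSeq's. The GENCODE gene, whose ends are the positions given for members elsewhere, begins 217 bases further upstream for Acta2 and 44 for Myl9. Most of the Acta2 window, with its marked letters, therefore lies inside the GENCODE gene. For Myl9 only the last 44 bases do, and the CArG box lies before the gene.
Acta2: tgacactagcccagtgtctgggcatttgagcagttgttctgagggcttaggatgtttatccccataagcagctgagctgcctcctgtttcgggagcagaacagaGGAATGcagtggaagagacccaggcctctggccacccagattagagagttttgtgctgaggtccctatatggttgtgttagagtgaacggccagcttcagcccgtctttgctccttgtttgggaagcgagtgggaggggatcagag
Ccn1: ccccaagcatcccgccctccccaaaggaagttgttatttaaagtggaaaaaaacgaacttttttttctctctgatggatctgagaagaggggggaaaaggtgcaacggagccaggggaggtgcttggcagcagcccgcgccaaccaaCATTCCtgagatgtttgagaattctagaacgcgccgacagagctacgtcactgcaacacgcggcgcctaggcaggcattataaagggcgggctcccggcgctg
Myl9: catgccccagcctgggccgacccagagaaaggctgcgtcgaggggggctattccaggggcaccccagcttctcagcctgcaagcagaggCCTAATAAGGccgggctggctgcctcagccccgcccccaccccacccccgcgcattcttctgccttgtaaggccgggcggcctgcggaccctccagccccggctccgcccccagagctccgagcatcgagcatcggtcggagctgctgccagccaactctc

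Per kilobase of exon, the order of the members differed between the genotypes. Averaged over the KO vehicle libraries, Lox led at 6.19 CPM per kilobase, ahead of Cav1 at 3.78, Fstl1 at 3.01, Igfbp7 at 2.61, Ccn2 at 2.2, Sparc at 2.19 and Acta2 at 1.92. In the WT vehicle libraries Acta2 led at 59.2 CPM per kilobase, ahead of Ccn2 at 50.1, Tagln at 34.9, Sparc at 29.1, Col1a1 at 28.7 and Lox at 26.1.

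Within WT, the members followed the replicate number. In 35 of the 41 genes number 1 was highest, number 2 next and number 3 lowest under all 4 treatments, an order that held for 5.70% of all genes tested. For the summed members, number 1 was 2.27 to 2.67 times number 2 and 3.48 to 4.22 times number 3. Col1a1 in number 1 was 3.72 to 4.38 times its level in number 3, and Ccn1, at 4.30 to 5.56 times, was steeper still. The exceptions were Col6a2, Fap, Cav1, Thy1, Lum and Mfap5. Cav1 in number 1 was only 0.992 to 1.45 times its level in number 3. The labels do not say what a replicate number shares, and no batch is given.

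KO libraries showed no such order, and their spread was smaller. The summed members averaged 147, 175, 194 and 140 CPM over the KO libraries numbered 1 to 4, against 3090, 1230 and 818 CPM over the WT libraries numbered 1 to 3. Across the 12 WT libraries, each tested member's deviation from its group mean correlated with that of the other members at r of at least 0.887, except Cav1 at 0.722. Across the 15 KO libraries r was lower for several, with 0.157 for Lox, 0.261 for Fstl1, -0.12 for Pdgfra and -0.18 for Fap. Such values describe libraries that share a group and a depth, and many KO levels rest on few counts. The 12 WT libraries are also 3 replicate numbers under 4 treatments, and so are not 12 independent points.

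Genes outside the set whose deviations lay closest to the members' mean were of similar kinds. Over 27 libraries r was 0.987 for Fscn1, an actin-bundling protein, 0.986 for Lamb1, a laminin chain, and 0.985 for Cald1, caldesmon. Bcar1, Phldb2, Aebp1, Fbln2, Serpinh1, Dpysl3 and Tgfb3 followed at 0.984 to 0.972. Cald1 had 2.27 to 9.23 CPM in KO libraries and 21.0 to 124 CPM in WT libraries, so these neighbours also separated the genotypes.

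Under treatment, 2 members changed in their level by the test without regard to replicate number, Cav1 and Postn. Cav1, caveolin-1, coats the membrane pits called caveolae and is found in many cell types (chromosome 6, 17306335 to 17341452, plus strand, mm10). In KO libraries it had 3.20, 3.32 and 3.28 CPM with IL4, 5.74, 5.88, 6.53 and 4.05 CPM with corticosterone, 4.85, 4.04, 4.96 and 2.77 CPM with dexamethasone, and 25.6, 5.74, 9.24 and 11.6 CPM with vehicle. The IL4 and dexamethasone groups lay below all KO vehicle libraries, and corticosterone overlapped them. In WT libraries it had 11.9, 8.5 and 8.22 CPM with IL4, 16.4, 14.4 and 13 CPM with corticosterone, 15.5, 14.4 and 15.6 CPM with dexamethasone, and 30.0, 31.6 and 26.2 CPM with vehicle. All treated WT libraries lay below all WT vehicle libraries. With IL4 Cav1 fell by 1.99 ± 0.34 (log2, SE) in KO (adjusted p = 0.0001548) and by 1.62 ± 0.32 in WT (adjusted p = 0.0004713). With dexamethasone it fell by 1.65 ± 0.30 in KO (adjusted p = 0.0003206) and by 0.95 ± 0.32 in WT (adjusted p = 0.04807). The WT dexamethasone call was lost in each of the 9 fits that left out a WT vehicle library, a WT dexamethasone library or all WT libraries of a number (adjusted p from 0.0706 to 0.32). With corticosterone it fell by 1.22 ± 0.29 in KO (adjusted p = 0.006157). Without the KO libraries numbered 1, which hold the vehicle library at 25.6 CPM, the log2 fold change was -0.70 (adjusted p = 0.06), and fitted on its own groups alone the call was lost too (adjusted p = 0.117). In WT the corticosterone difference was -1.0 ± 0.32 (adjusted p = 0.06402).

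Cav1 was also lower in KO than in WT under each treatment, by 1.17 ± 0.29 on the log2 scale in vehicle (adjusted p = 0.005786), 1.55 ± 0.36 in IL4, 1.39 ± 0.31 in corticosterone and 1.87 ± 0.32 in dexamethasone cultures. Fitted on the vehicle libraries alone the difference missed the threshold (adjusted p = 0.124), as did that with IL4 when the WT libraries numbered 1 were left out (adjusted p = 0.0635). The vehicle groups did not overlap, but KO vehicle number 1, at 25.6 CPM, came close to the lowest WT vehicle library, at 26.2 CPM.

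Postn was the only member that rose with a treatment in this test. With IL4 it had 7.41, 8.64 and 11.6 CPM in KO libraries, against 1.78, 2.33, 1.84 and 0.997 CPM in KO vehicle libraries, with no overlap. The log2 fold change was 2.41 ± 0.53 (adjusted p = 0.001995), and 2.02 without the KO libraries numbered 4 (adjusted p = 0.0563). In WT it had 58.7, 25.5 and 23.1 CPM with IL4, against 45.9, 20.0 and 18.9 CPM with vehicle, and the log2 fold change was 0.34 ± 0.47 (adjusted p = 0.6541). The difference between the genotypes' responses was 2.08 ± 0.71 on the log2 scale (adjusted p = 0.3569), which did not pass without a replicate block. With IL4 the KO libraries still lay below the WT ones, with a log2 fold change of -1.96 ± 0.50 (adjusted p = 0.01253). That call was lost without WT IL4 number 1 (-1.43, adjusted p = 0.115), without the KO libraries numbered 1 (-1.82, adjusted p = 0.0552) and without those numbered 4 (-2.18, adjusted p = 0.0519).

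Over the members as a whole, the treatment counts were small. In KO, IL4 changed 2 of the 41, Postn upwards and Cav1 downwards, beside 26.5% of all genes tested that changed in either direction. Corticosterone and dexamethasone in KO each changed 1, Cav1, which fell, where 12.1% and 18.4% of all genes tested changed. In WT, IL4 changed 1 member, Cav1, which fell (30.1% of all genes tested changed), corticosterone changed 0 (5.94%) and dexamethasone changed 1, Cav1 again, which fell (13.7%). At an unadjusted p under 0.05, corticosterone in WT had 1 member, and DESeq2 called 1. By the same test, without a replicate block, no member had a response that differed between the genotypes, where 0.0274% of all genes tested passed for IL4, 0.0206% for corticosterone and 0.185% for dexamethasone. At an unadjusted p under 0.05 these were 1, 0 and 0 members, and DESeq2 called 0 in each. The spread between the WT numbers enters these tests in full.

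The WT libraries of one number deviated together, and so did the KO corticosterone and KO vehicle libraries. With the replicate number as a block, IL4 in WT raised 1 member (19.6% of all genes tested rose) and lowered 8 (20.4% fell). Thbs2 fell by 1.03 ± 0.19 (adjusted p = 0.0002123), and Cav1, Cnn1, Col12a1, Tagln, Pdgfrb, Tpm2 and Serpinf1 fell too, while Pdgfra rose by 0.48 ± 0.15 (adjusted p = 0.01227). Dexamethasone in WT then raised Fbn1, Fap and Vgll3 (12.2% of all genes tested rose) and lowered Cav1 (9.87% fell), with log2 fold changes of 0.60 for Fbn1 and 0.56 for Vgll3. Corticosterone in WT lowered Cav1, by 1.01 ± 0.27 (adjusted p = 0.02123), and raised none, where 7.08% of all genes tested rose and 5.19% fell. In KO, corticosterone raised Vgll3, Acta2 and Myl9 by 1.60, 0.89 and 1.01 on the log2 scale (10.4% of all genes tested rose) and lowered Cav1 (10.0% fell).

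Read pair by pair, the WT members leaned down with IL4 and up with dexamethasone. The summed members in the WT IL4 libraries were 0.878, 0.909 and 0.790 times those of the vehicle library of the same number (numbers 1 to 3). With dexamethasone the ratios were 1.13, 1.33 and 1.23, and with corticosterone 1.03, 1.07 and 1.05. Of the 38 tested members, 27 were below the vehicle library in all 3 WT IL4 pairs and 4 were above it in all 3, where 35.0% and 32.9% of all genes tested were. With dexamethasone 1 was below and 27 were above in all 3 WT pairs (27.1% and 30.9% of all genes tested). With corticosterone the counts were 6 below and 10 above (23.9% and 27.6%). Acta2 showed this evenly with IL4, at ratios of 0.679, 0.696 and 0.666, and Col4a1 with dexamethasone, at 1.60, 1.94 and 1.92. The 3 treatments share the vehicle libraries.

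**Figure D4:**
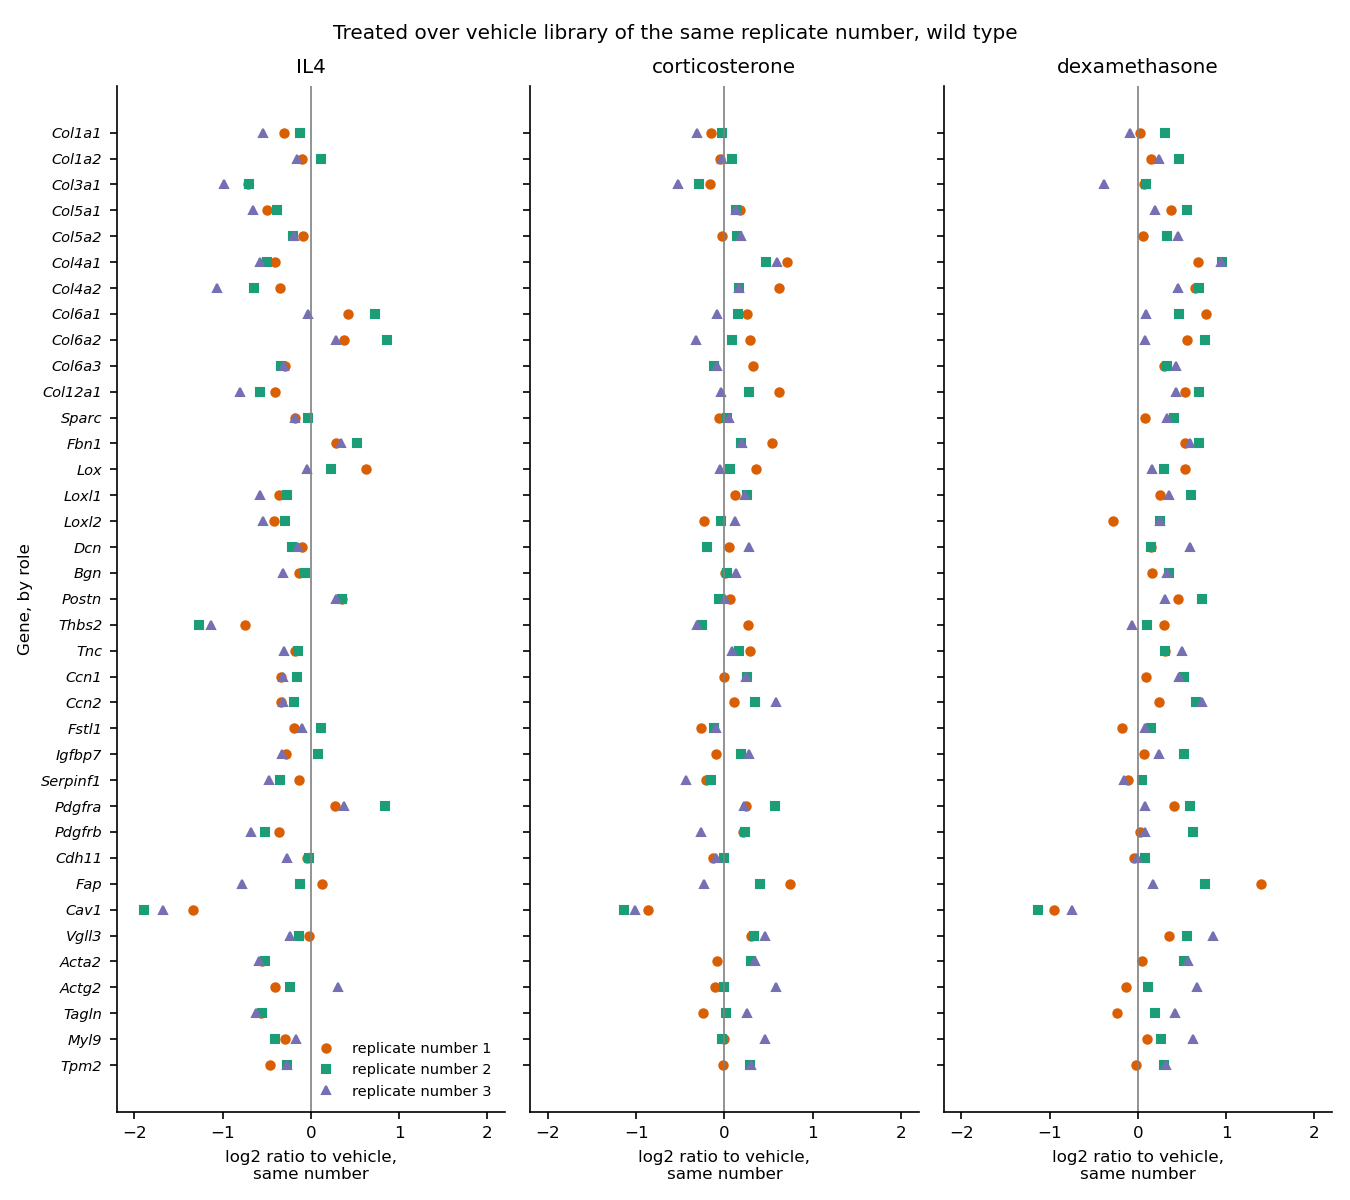
Log2 ratio of each WT treated library to the WT vehicle library of the same replicate number, for 37 tested members ordered by role, with 1 panel per treatment and 1 symbol per number; Cnn1 is left out. Most points lie left of 0 with IL4 and right of 0 with dexamethasone, and Cav1 lies left of 0 in all 9 pairs.

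In KO the ratios depended on number 1. The summed members were 0.465, 1.10 and 1.03 times the same-numbered vehicle library with IL4 (numbers 1, 2 and 4), 0.593, 1.34, 1.3 and 1.56 with corticosterone, and 0.659, 1.69, 1.92 and 1.07 with dexamethasone (numbers 1 to 4). KO vehicle number 1 had the highest sum of its group, and all 3 ratios to it were below 1 while the others were above 1.

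Genes that work on the same matrix but are not members followed the members in part. Of 21 collagen biosynthesis enzymes, all tested, 12 fell and 1 rose in KO against WT with vehicle, where 10.3% of all genes tested fell and 8.47% rose, the shares that also stand beside the counts of the 2 lists that follow. P4ha2, a prolyl hydroxylase, fell by 1.26 ± 0.11 (adjusted p = 4.302e-08), and Fkbp10, Serpinh1 and Plod2, a folding factor, the collagen chaperone HSP47 and a lysyl hydroxylase, fell by 4.38, 3.84 and 2.62 on the log2 scale. The enzymes summed to 2250 to 2810 CPM in KO libraries and 2330 to 3070 CPM in WT libraries, ranges that overlap over all treatments, though with dexamethasone the groups did not overlap (2710 to 2810 CPM in KO libraries and 2840 to 3070 CPM in WT libraries). Of 30 other matrix structural genes, 25 were tested, 18 fell and 3 rose (Emilin1, Ecm1 and Col15a1). Fbln2, fibulin-2, fell by 5.15 ± 0.77, and Nid1, Col16a1 and Lamb1, which encode nidogen-1, a collagen chain and a laminin chain, fell by 4.36, 3.34 and 4.19. Of 16 TGF-beta and TEAD response genes, 11 fell and 1 rose. Among the genes tested in these lists, P4ha3, Adamts14, Col11a1, Fbln1, Fmod, Ogn and Ankrd1 passed the filter only through their WT libraries. The counts of genes that fell were not redone without them. Ankrd1 had 0, 0.041, 0.0399 and 0 CPM in KO vehicle libraries, against 3.83, 1.01 and 0.547 CPM in WT vehicle libraries. Tgfb1i1 fell by 3.50 on the log2 scale. Tgfbr2, a receptor for TGF-beta, rose by 0.58 ± 0.09 (adjusted p = 8.416e-05), with 340, 271, 304 and 361 CPM in KO vehicle libraries, against 198, 228 and 213 CPM in WT vehicle libraries.

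Markers of other cell types that marrow cultures can hold were read in the same libraries. Neutrophil markers summed to 6.18 to 17.0 CPM in KO libraries and 49.1 to 348 CPM in WT libraries. With vehicle, the neutrophil sum was 10.6, 11.9, 7.88 and 12.2 CPM in KO libraries, against 348, 132 and 88.9 CPM in WT libraries, the same order of numbers as for the stromal genes. S100a9, a calcium-binding protein of neutrophils, had 0.655 to 3.20 CPM in KO libraries, against 16.4 to 135 CPM in WT libraries. Ly6g, which defines mouse neutrophils, had 5 counts in all and was at 0 in 23 of 27 libraries. Across the 12 WT libraries the mean deviation of the neutrophil list had an r of 0.994 with that of the members, and across the 15 KO libraries -0.438. In WT libraries r was also high for other lists, at 0.983 for marrow mesenchymal stromal, 0.981 for pericyte and smooth muscle, 0.951 for B cell and 0.949 for osteoblast markers, and in KO libraries these were 0.789, 0.434, -0.074 and 0.037. The remaining lists had a lower r in WT libraries. It was 0.79 for endothelial, 0.78 for megakaryocyte, 0.398 for adipocyte, 0.224 for chondrocyte and -0.246 for macrophage markers. The part of these cell types in the stromal differences was not tested.

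The marrow mesenchymal stromal list (12 genes) summed to 19.4 to 59.9 CPM in KO libraries and 38.0 to 83.0 CPM in WT libraries, and the KO groups lay below the WT groups with IL4, corticosterone and dexamethasone but overlapped with vehicle. In KO libraries Kitl gave most of this sum, at 15.7 to 54.4 CPM. Lepr, which defines these cells in marrow, stayed at or below 0.126 CPM in KO libraries and 0.547 CPM in WT libraries. Cxcl12, a chemokine of stromal cells, had 0.686 to 3.74 CPM in KO libraries, against 7.55 to 35.6 CPM in WT libraries. Prrx1, a transcription factor of limb mesenchyme and fibroblasts, had 0.343 to 1.06 CPM in KO libraries, against 2.73 to 14.7 CPM in WT libraries. Both separated the genotypes as the members did. Pericyte and smooth muscle markers summed to 18.2 to 34.9 CPM in KO libraries and 22.9 to 39.4 CPM in WT libraries, endothelial markers to 75.3 to 303 and 65.8 to 329 CPM, osteoblast markers to 3.46 to 12.8 and 2.99 to 14.9 CPM, and chondrocyte markers to 1.25 to 4.13 and 2.17 to 4.16 CPM. Adipocyte markers summed to 0.0375 to 0.906 CPM in KO libraries and 0.0306 to 1.08 CPM in WT libraries, megakaryocyte markers to 169 to 423 and 225 to 385 CPM, and B cell markers to 2.57 to 11.0 and 6.03 to 21.7 CPM. These ranges, taken over all treatments, overlapped. Within a treatment the B cell sums did not, with KO below WT under all 4, from the narrowest gap with IL4 (4.71 to 6.89 CPM in KO libraries and 6.91 to 15.7 CPM in WT libraries) to dexamethasone (2.57 to 3.46 CPM in KO libraries and 6.03 to 10.9 CPM in WT libraries). KO sums also lay below WT sums for pericyte and smooth muscle markers with IL4 and dexamethasone, for chondrocyte markers with vehicle and IL4, and for megakaryocyte markers with IL4, while endothelial sums lay above with vehicle. The part of these lists in the stromal differences was not tested.

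**Figure D5:**
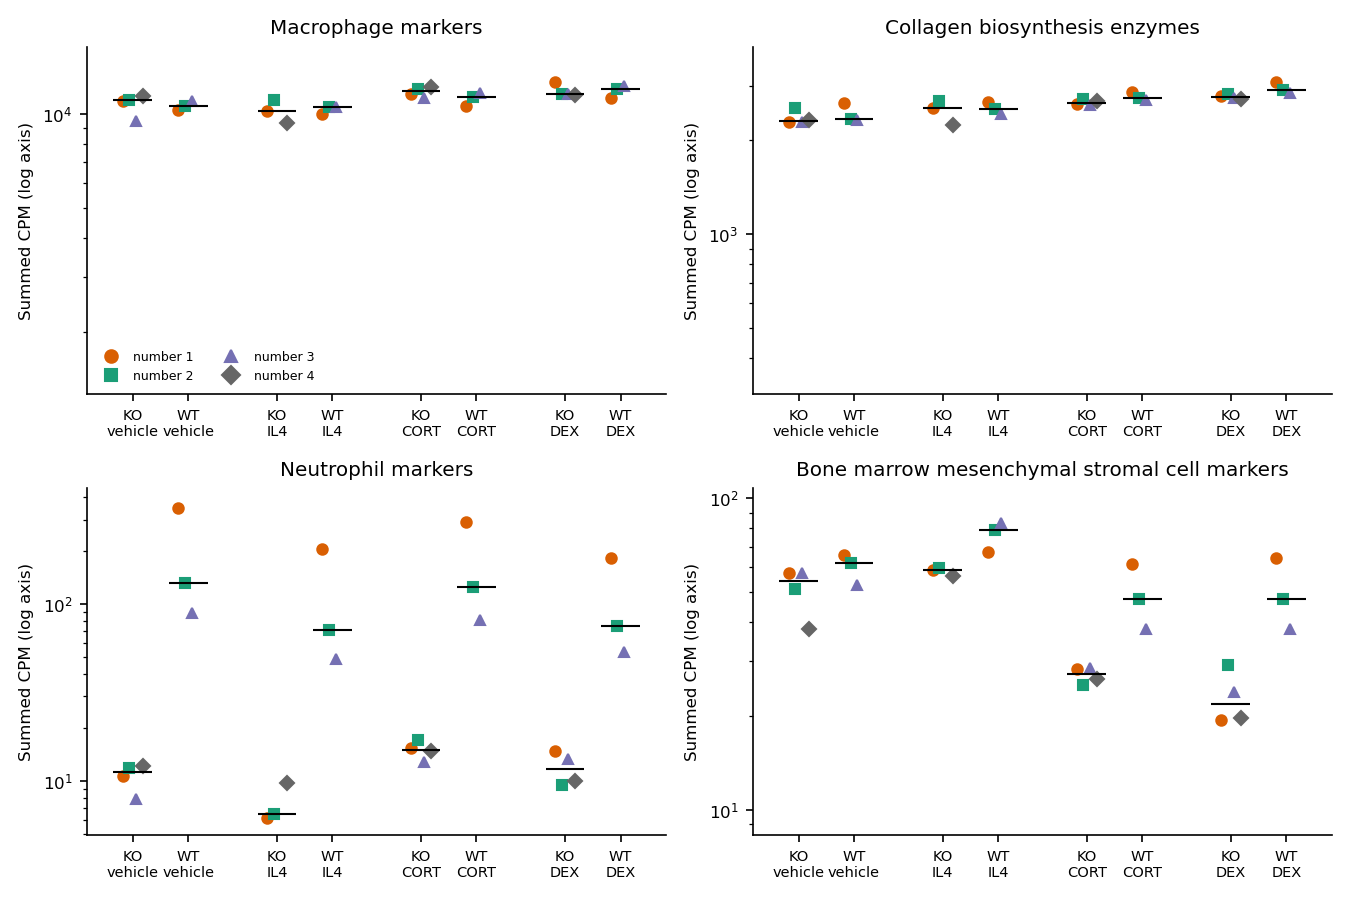
Summed CPM (log axis) of macrophage markers, collagen biosynthesis enzymes, neutrophil markers and marrow mesenchymal stromal markers in each library, KO left of WT for each treatment, with symbols for the replicate number and lines for group medians. Macrophage markers stay between 9360 and 12600 CPM, whereas neutrophil markers reach at most 17.0 CPM in KO libraries and at least 49.1 CPM in WT libraries.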

How the data were processed

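Poly(A) RNA was sequenced as 50-base read pairs from a directional kit, per the labels' protocols. The deposited counts are raw read counts per gene, with no normalization. The submitters' processing notes name fastp 0.23.2, STAR 2.7.0, featureCounts, edgeR 3.38.4 and the mm10 build. The strand setting and annotation are not given in the sources used here. Of the 41 genes, 9 have exons that overlap another counted gene on the opposite strand (Col5a1, Col4a1, Col4a2, Fbn1, Lox, Tnc, Ccn2, Igfbp7 and Tagln). Without strand, reads in the overlapping stretches cannot be told apart. CPM was computed on each library's total over the genes that passed the filter, multiplied by its TMM factor. Shares of all counts used the total counts. Genes were filtered with filterByExpr (minimum count 10), scaled by TMM and tested with edgeR 4.0.16 in R 4.3.3 (quasi-likelihood, 8 group means, common biological coefficient of variation 0.122), which was tested on simulated data. The simulated counts held no effect of replicate number, so that check does not cover the spread between the WT numbers. Positions came from GENCODE vM21, where 29815 of 29872 gene IDs were found. Values in every vehicle library are given for the member with the highest mean CPM in each of 7 role groups and for the 12 called members with the smallest adjusted p. Members and lists were chosen with earlier results of these data known.

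The numbers pair the WT treated and vehicle libraries (correlation of deviations 0.388 to 0.779) and the KO corticosterone and vehicle libraries (0.142 to 0.362), a finding from the data and not from the labels. Alternatives were DESeq2 1.42.0, other scalings and filters, the replicate block and leaving out libraries. Depth was 20162729 to 48023102 counts per library, and a count of 0 allows up to 3 counts, for counting error only.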

Additional observations from a re-analysis of the deposited data

Results flagged for a closer look

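In the KO vehicle group, Col4a1 in number 1 stood apart from the other 3 libraries, at 12 CPM against 3.03 to 3.85 CPM. In the KO corticosterone group, the summed CPM of the 41 genes in number 1 stood apart as the lowest, at 128 CPM against 179 to 187 CPM. These were 2 of 54 checks for a library far from the others, each of a gene or the sum in a group of 4 libraries. Chance alone picks out about 1 in 20 such checks, which share libraries and are therefore not independent. No cause was tested.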

How the results depend on the processing

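In KO against WT, with the replicate block 36 of the 41 genes were lower under each treatment, as without it. That block joins KO and WT libraries of the same number, which the data do not pair (correlation of deviations -0.275 to 0.082). Other fits left out 1 library, or all libraries of one genotype and number. Members called in either direction, Actg2 and Cnn1 not set aside, then numbered 35 to 38 with vehicle and 29 to 36 with IL4. They numbered 32 to 36 with corticosterone and 34 to 37 with dexamethasone. Over all genes the calls were 1809 to 2773, 638 to 2003, 1057 to 1938 and 1540 to 2408, in the same order. Among these fits the lowest count came without WT number 1 of the group compared (with IL4, also without the KO libraries numbered 4). Without the 4 libraries high in Arg1 the counts were lower still with vehicle and dexamethasone, at 31 and 33, and were 36 with IL4 and corticosterone. No value of a named, called member changed sign under any alternative run. The treatment counts rest on few genes and moved more. With the replicate block the counts of members called in KO were 5 for IL4, 4 for corticosterone and 15 for dexamethasone (14 of them higher), against 2, 1 and 1 without it. In WT they were 9 for IL4, 1 for corticosterone and 4 for dexamethasone, against 1, 0 and 1. Over all genes the block gave 5219, 2974 and 4056 calls in KO and 5827, 1790 and 3225 in WT. The numbers do not pair the KO IL4 or KO dexamethasone libraries with KO vehicle, since the lowest correlations of their deviations were 0.096 and -0.084. The IL4 response of Postn differed between the genotypes with the block, by 2.33 ± 0.31 on the log2 scale (adjusted p = 0.002377), as the 1 member so called. DESeq2 gave 1 for corticosterone in WT and 4 for IL4 in KO, the newer edgeR fit 1 for corticosterone in WT, and no filter 0 for dexamethasone in WT. With only the groups compared there were 1 for corticosterone in WT and 2 for dexamethasone in KO, and without the libraries high in Arg1, chosen after seeing the data, 1 for corticosterone in WT. Leaving out libraries gave 1 to 2 for IL4, 0 for corticosterone and 0 for dexamethasone in WT, 1 to 3, 0 to 1 and 1 to 2 in KO, and 0 for each difference in response between the genotypes. With only the groups compared, Cav1 missed the threshold in KO against WT with vehicle (-1.19, adjusted p = 0.124) and with corticosterone in KO (-1.23, adjusted p = 0.117). The cause was not tested. Members at under 1 CPM in KO libraries rest on few counts, which limits their fold changes.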

Other observations

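Kitl, which encodes the stem cell factor that stromal cells display, ran against the members in WT number 1, and was picked out after its values were seen. The WT libraries numbered 1 had 7.58 to 11.1 CPM, against 21.9 to 67.2 CPM in the other WT libraries and 15.7 to 54.4 CPM in KO libraries. With vehicle, Kitl in KO against WT had a log2 fold change of 0.72 ± 0.48 (edgeR quasi-likelihood, adjusted p = 0.3499).

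Fn1, fibronectin, is a matrix protein that macrophages also make, and it rose with IL4 by 2.97 ± 0.54 in KO on the log2 scale (edgeR quasi-likelihood, adjusted p = 0.000397). It had 151, 182 and 201 CPM in KO libraries with IL4, against 18.8, 32.2, 31.0 and 8.48 CPM with vehicle. In WT it had 557, 393 and 366 CPM with IL4, against 263, 122 and 79.3 CPM with vehicle, so the WT order by number was still visible. Ecm1, another matrix protein, rose with dexamethasone by 1.51 ± 0.09 in KO and by 1.73 ± 0.11 in WT on the log2 scale (edgeR quasi-likelihood, adjusted p = 1.349e-11 and 2.337e-11). Plod1, a lysyl hydroxylase, rose with it by 0.67 ± 0.06 in KO and 0.73 ± 0.07 in WT. These genes therefore changed with treatment where most of the collagens and contractile genes did not pass.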
